A study of Mus musculus with 12 samples.

Results

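Untreated macrophages without Trem2 were compared directly with wild-type macrophages whose lysosomal proton pump had been blocked. The 2 groups were Trem2 KO DMSO (Trem2 knockout, solvent for 22 hours) and WT BafA1 (wild type, 25 nM bafilomycin A1 for 22 hours). They were chosen by the sample titles alone, with 3 libraries each, or 6 of the 12 libraries of the series, and all genes were considered. A further group, WT DMSO (wild type, solvent for 22 hours, 3 libraries), served to show the starting level. Its libraries also entered the shared fit, with its filter on low counts, scaling and estimate of spread. All cells were bone-marrow-derived macrophages (BMDM), grown from mouse marrow with M-CSF, frozen after differentiation and thawed for the experiment. Per the labels' protocols, bones of several mice, 3 in the knockout studies, went into each biological replicate. The age and strain of the mice and the deleted part of Trem2 were not stated in the sources at hand. The 2 groups differ in genotype and in treatment at the same time, so a difference between them cannot be assigned to either one alone. P-values measure only the spread between these libraries.

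TREM2 is a lipid-sensing receptor on the surface of macrophages and microglia that signals through the adaptor DAP12 (gene Tyrobp). It is known for supporting lipid handling, survival and a lysosome-rich state in phagocytes. Bafilomycin A1 binds the membrane part of the vacuolar ATPase, the pump that acidifies lysosomes. Without acid, lysosomal hydrolases work poorly, cholesterol taken up by the cell is not released to the ER, and the transcription factors TFEB and TFE3 can turn on lysosomal genes. Low ER cholesterol activates SREBP2, which drives the genes of sterol synthesis, while oxysterols activate LXR, which drives cholesterol export. The comparison shows which of these programmes stood at the same level in the 2 groups and which did not.

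Expression was read from the 3′ ends of mRNA as estimated counts, with totals between 4407466 and 6585984 in the 6 libraries. Levels are given as CPM, counts scaled to a common library size, with SD over 3 libraries. Of 56980 features, 12052 had enough counts to be tested, and p-values come from edgeR's quasi-likelihood test, adjusted over all of them by the Benjamini-Hochberg method. A gene was called where this adjusted p was under 0.05. All log2 differences without another label are Trem2 KO DMSO minus WT BafA1. In 1 fit this difference equals the difference of each group from WT DMSO, one minus the other, so the WT DMSO level cancels out of it. The differences of both groups from WT DMSO share the same 3 control libraries and are therefore given side by side only.

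The promoters of 5 genes are shown first, each from a gene list for which a known response element was searched. Each is the RefSeq window of 300 bases, 250 before and 50 after the gene's start, of build GRCm38.p6. Capitals mark the element named on the line, on either strand.
Hspa5, ER stress element, chr2:34771840-34772139, plus strand: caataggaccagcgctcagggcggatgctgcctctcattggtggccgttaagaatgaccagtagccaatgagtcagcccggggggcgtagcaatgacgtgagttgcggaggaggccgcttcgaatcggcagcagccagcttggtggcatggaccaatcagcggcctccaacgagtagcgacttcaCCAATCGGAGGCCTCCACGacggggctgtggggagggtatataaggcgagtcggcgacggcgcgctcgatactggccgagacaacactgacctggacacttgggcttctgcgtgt
Hmgcs1, sterol response element, chr13:119690101-119690400, plus strand: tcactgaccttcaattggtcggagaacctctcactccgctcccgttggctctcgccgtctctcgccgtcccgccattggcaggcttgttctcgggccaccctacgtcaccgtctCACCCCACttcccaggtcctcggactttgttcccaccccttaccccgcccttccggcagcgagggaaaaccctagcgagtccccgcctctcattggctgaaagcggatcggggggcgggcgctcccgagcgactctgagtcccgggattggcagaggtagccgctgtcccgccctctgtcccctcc
Asns, amino acid response element, chr6:7693160-7693459, minus strand: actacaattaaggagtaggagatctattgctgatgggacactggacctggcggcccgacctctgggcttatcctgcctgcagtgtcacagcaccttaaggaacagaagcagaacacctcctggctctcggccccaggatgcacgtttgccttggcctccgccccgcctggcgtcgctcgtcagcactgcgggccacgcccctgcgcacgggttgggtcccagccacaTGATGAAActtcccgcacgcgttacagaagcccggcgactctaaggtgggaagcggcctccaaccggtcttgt
Cdk1, cell cycle homology regions, chr10:69352863-69353162, minus strand: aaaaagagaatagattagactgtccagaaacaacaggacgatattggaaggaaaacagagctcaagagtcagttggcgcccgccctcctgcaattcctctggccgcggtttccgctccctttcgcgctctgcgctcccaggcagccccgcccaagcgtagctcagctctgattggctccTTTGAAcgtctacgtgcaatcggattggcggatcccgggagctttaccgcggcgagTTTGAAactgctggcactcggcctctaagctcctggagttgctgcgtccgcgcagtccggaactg
Ifit3, interferon-stimulated response elements, chr19:34583279-34583578, plus strand: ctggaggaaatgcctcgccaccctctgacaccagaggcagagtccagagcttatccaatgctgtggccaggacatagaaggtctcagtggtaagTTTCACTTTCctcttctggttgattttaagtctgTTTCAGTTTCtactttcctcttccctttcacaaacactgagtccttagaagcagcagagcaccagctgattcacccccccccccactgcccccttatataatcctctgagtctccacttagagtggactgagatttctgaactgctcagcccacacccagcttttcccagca

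The ER stress element, searched as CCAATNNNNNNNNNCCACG, was found in 9 of 20 promoters of the ER chaperone list (45.0%), against 39 of all 32851 promoters (0.119%). The interferon-stimulated response element, GAAANNGAAA, was in 14 of 25 promoters of the interferon list (56.0%), against 1131 of all promoters (3.44%). The cell cycle homology region, TTTGAA or TTCGAA, was in 25 of 30 promoters of the mitosis list (83.3%), against 6316 of all (19.2%). The amino acid response element, TGATGNAA, was in 9 of 33 promoters of the ATF4 list (27.3%), against 1304 of all (3.97%). The sterol response element, CACCCCAC, was in 2 of 22 promoters of the sterol list (9.09%), against 942 of all (2.87%). CACGTG, the E-box read by TFEB and TFE3, was in 8 of 37 promoters of lysosomal membrane genes (21.6%), against 2349 of all (7.15%). Both strands were searched, and no ER stress element overlapped another of these motifs, while between 12 and 30 promoters held an overlap for each of the other motifs. A match is a description of these letters and says nothing about binding. The shares were not compared between genes that differed between the groups and genes that did not.

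Trem2 itself was lower in Trem2 KO DMSO than in WT BafA1, and WT BafA1 was in turn below WT DMSO. It had 219, 198 and 216 CPM in Trem2 KO DMSO, against 399, 399 and 399.7 CPM in WT BafA1 and 617, 567 and 573 CPM in WT DMSO. The 3 groups did not overlap, and the log2 difference between Trem2 KO DMSO and WT BafA1 was -0.92 (SE 0.0797, edgeR adjusted p = 2.3e-09). A 3′ tag outside the deleted part can still be counted, so the level in the knockout does not measure intact transcript. Its adaptor Tyrobp averaged 1046 ± 77.3 CPM in Trem2 KO DMSO and 782 ± 23.3 CPM in WT BafA1 (SD, n = 3 each), a log2 difference of 0.42 (edgeR adjusted p = 0.00045). The kinase Syk, the next step of the signal, averaged 141 ± 3.41 CPM in Trem2 KO DMSO and 124 ± 2.00 CPM in WT BafA1, with a log2 difference of 0.19 (edgeR adjusted p = 0.051). Of the 14 tested members of the list of Trem2 and its signalling partners, 10 were called higher in Trem2 KO DMSO and 2 lower, Trem2 among them, where 24.5% of all genes were higher and 24.0% lower. The lipid phosphatase gene Inpp5d had a log2 difference of 1.15.

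Across all genes the 2 groups stood far apart. Of the 12052 genes, 5846 were called (48.5%), 2951 higher in Trem2 KO DMSO (24.5%) and 2895 lower (24.0%). With a limit of 2-fold as well, 1044 were higher (8.66%) and 754 lower (6.26%). A further reading used the 95% interval of the log2 difference, and 4128 genes (34.3%) had the whole interval within 1.5-fold, or 0.585 on the log2 scale, in either direction. For 3043 genes (25.2%) the difference was neither called nor held within 1.5-fold, so the data leave these undecided. The median log2 difference of all genes was 0.02. These shares are the background against which each list is read.

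**Figure D1:**
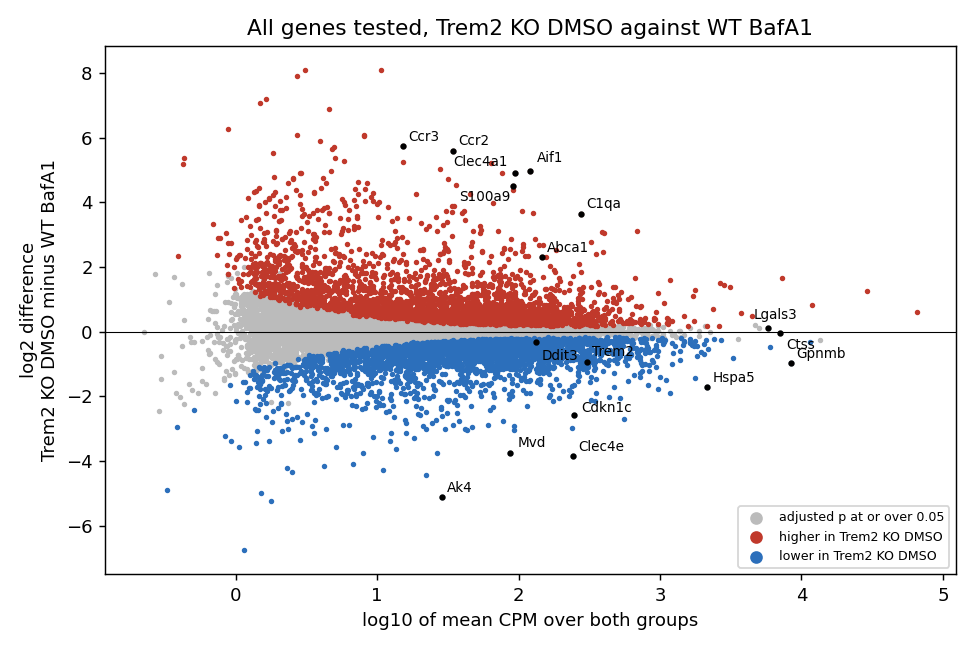
Log2 difference between Trem2 KO DMSO and WT BafA1 (vertical axis) against the log10 of the mean CPM over both groups (horizontal axis), 1 point per tested gene. Red points are the 2951 genes called higher and blue points the 2895 called lower in Trem2 KO DMSO, and the labelled genes are described in the text.

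Trem2 KO DMSO was closer to WT DMSO than to WT BafA1. The root mean square of log2 differences over all genes averaged 0.878 between a Trem2 KO DMSO and a WT BafA1 library (0.822 to 0.946 over 9 pairs). It averaged 0.697 between Trem2 KO DMSO and WT DMSO (0.674 to 0.731) and 0.846 between WT BafA1 and WT DMSO (0.821 to 0.863). Pairs of replicates within these 3 groups lay between 0.360 and 0.437. In a principal component analysis of the 9 libraries, the first component (51.9% of variance) set WT BafA1 apart from both solvent groups. The second (26.5%) set Trem2 KO DMSO at one end and WT DMSO at the other, with WT BafA1 between them.

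Library composition moved with the groups. All features of the mitochondrial genome together made up 5.74% to 7.36% of counts in Trem2 KO DMSO libraries, against 3.72% to 3.84% in WT BafA1. The 13 mRNAs among them overlapped, at 10895 to 12385 CPM in Trem2 KO DMSO and 11529 to 11791 CPM in WT BafA1. The gap in the share therefore lay outside these mRNAs. Ribosomal protein transcripts made up 4.56% to 4.94% in Trem2 KO DMSO and 5.26% to 5.61% in WT BafA1, and the 10 highest genes took 17.1% to 20.9% in Trem2 KO DMSO and 13.7% to 15.0% in WT BafA1. Their part in the results was not tested. The 49 gene lists used below hold 847 different genes, of which 725 passed the filter on low counts. Genes were named by a rule, except Atf4, Cdk1, Itgam, Npc1, Slc29a3, Spi1, Syk, Tax1bp1, Tfe3 and Tfeb, which were chosen after their values were seen. The 8 listed macrophage markers summed to 7370 to 8720 CPM in Trem2 KO DMSO and 5350 to 5880 CPM in WT BafA1. Of the 8, 6 were called higher in Trem2 KO DMSO and 1 lower. Lyz2 had the most counts of the 8 in each library, 20334 to 27033 in Trem2 KO DMSO and 22244 to 23399 in WT BafA1. Not every marker was high throughout: Fcgr1 had 273, 350 and 341 counts in Trem2 KO DMSO and 17, 15 and 23 in WT BafA1.

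Subunits of the proton pump were lower in Trem2 KO DMSO than in WT BafA1, by small steps. Of the 8 tested subunits of V1, the part that splits ATP, 7 were called lower and none higher, with a median log2 difference of -0.29. Of the 10 tested genes for V0, the part that carries protons through the membrane, and its accessory proteins, 9 were called lower and 1 higher, with a median log2 difference of -0.47. None of the 18 differed by 2-fold. Between the 2 groups 24.0% of all genes were called lower and 24.5% higher. The median log2 difference of the V1 list from WT DMSO was 0.41 in Trem2 KO DMSO, with 6 of 8 called higher, and 0.96 in WT BafA1, with 7 of 8 called higher. For V0 these medians were 0.23 and 0.59, with 5 and 8 of 10 called higher. Of all genes, 13.8% were called higher and 16.5% lower than WT DMSO in Trem2 KO DMSO, and 21.6% higher and 25.3% lower in WT BafA1.

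The catalytic subunit Atp6v1a had 1925, 1959 and 1825 CPM in Trem2 KO DMSO, 1766, 1934 and 1968 CPM in WT BafA1 and 1411, 1367 and 1257 CPM in WT DMSO. Its libraries overlapped between Trem2 KO DMSO and WT BafA1, both above WT DMSO, and the 95% interval of the log2 difference ran from -0.15 to 0.17. Atp6v1f, a subunit of the rotor stalk, had 467, 534 and 486 CPM in Trem2 KO DMSO, 1029.6, 1013 and 896 CPM in WT BafA1 and 509, 488 and 473 CPM in WT DMSO. WT BafA1 stood above both other groups for Atp6v1f, and the log2 difference was -0.98 (SE 0.0747, edgeR adjusted p = 3.2e-10). Tcirg1, the membrane subunit a3 found in lysosomes and osteoclasts, was the V0 gene that ran the other way. It had 247, 255 and 226 CPM in Trem2 KO DMSO, 161, 170.3 and 148 CPM in WT BafA1 and 160.1, 153 and 172 CPM in WT DMSO. Here Trem2 KO DMSO stood above and both wild-type groups overlapped (log2 difference 0.60, edgeR adjusted p = 1.6e-06). The smallest V0 difference, in Atp6v0a1 (log2 -0.22), was no longer called without Trem2 KO DMSO replicate 1 or 3 or WT BafA1 replicate 1 (adjusted p of 0.061, 0.09 and 0.14).

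**Figure D2:**
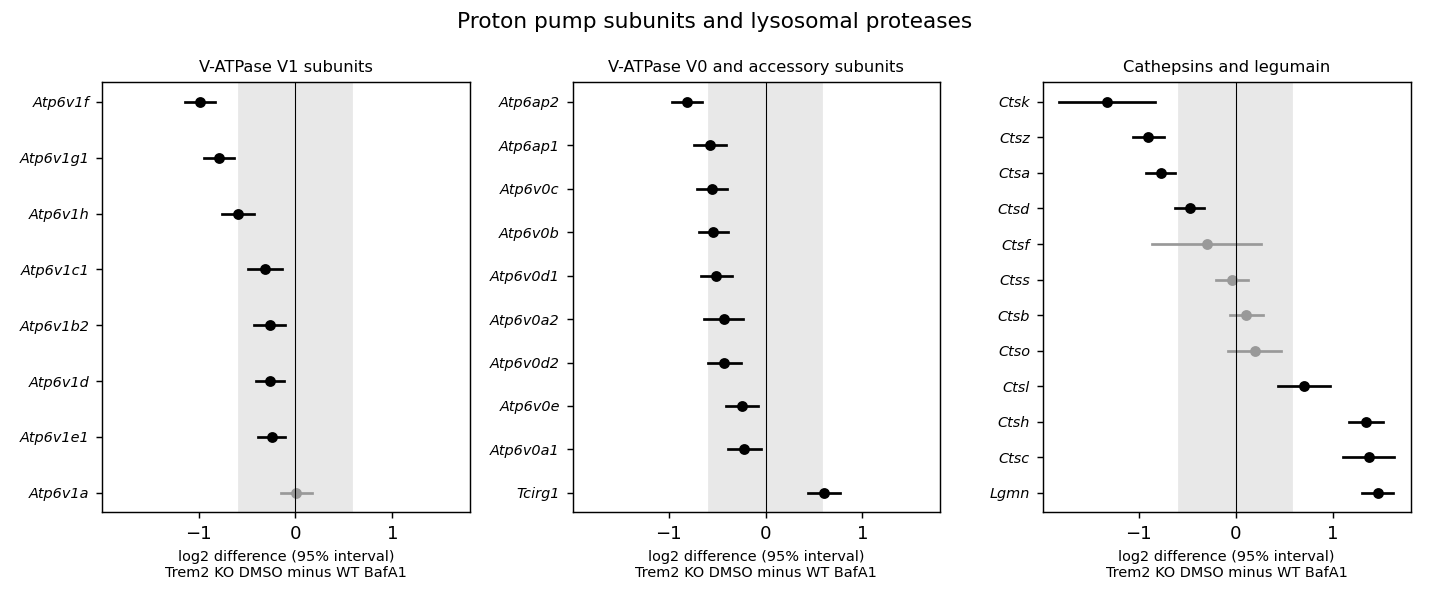
Log2 differences between Trem2 KO DMSO and WT BafA1 with 95% intervals for pump subunits and lysosomal proteases, black where called and grey where not. The shaded band is 1.5-fold in either direction, and the cathepsins spread from -1.33 (Ctsk) to 1.47 (Lgmn) while the pump genes stay between -0.98 and 0.60.

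Lysosomal proteases split into members at one level, members higher in Trem2 KO DMSO and members lower. Of 12 tested cathepsins and legumain, 4 were called higher in Trem2 KO DMSO, 4 lower and 4 not called. Among all genes 24.5% were higher and 24.0% lower. Ctss, an abundant elastase of macrophages, had 7192, 7432 and 6415 CPM in Trem2 KO DMSO, 7188, 7077 and 7327 CPM in WT BafA1 and 7075, 6879 and 6347 CPM in WT DMSO, with all 3 groups overlapping. The 95% interval of its log2 difference, like that of Ctsb, a main cysteine cathepsin, lay within 1.5-fold (-0.20 to 0.13 for Ctss and -0.06 to 0.28 for Ctsb). Ctsb averaged 5172 ± 491 CPM in Trem2 KO DMSO and 4792 ± 299.9 CPM in WT BafA1, both above 3709.8 ± 184 CPM in WT DMSO. Lgmn, the asparaginyl protease legumain, had 558, 507 and 569 CPM in Trem2 KO DMSO, 184, 192 and 216 CPM in WT BafA1 and 401, 416 and 393 CPM in WT DMSO. Its log2 difference of 1.47 (SE 0.0768, edgeR adjusted p = 9.9e-13) had Trem2 KO DMSO above and WT BafA1 below WT DMSO. Ctsh, Ctsc and Ctsl were also higher in Trem2 KO DMSO, with log2 differences of 1.34, 1.37 and 0.70. Ctsd, the aspartic protease, was lower (log2 difference -0.48), as were Ctsz (-0.90), Ctsa (-0.77) and Ctsk (-1.33).

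Among 39 tested glycosidases, sulfatases, lipases and their cofactors, 18 were called lower in Trem2 KO DMSO, 7 higher and 14 not called, and for 20 the interval stayed within 1.5-fold. The shares over all genes were 24.0% lower, 24.5% higher and 34.3% within 1.5-fold. Of the 39, 2 differed by 2-fold or more. Naglu, which removes N-acetylglucosamine from heparan sulfate, had 59.1, 70.3 and 52.3 CPM in Trem2 KO DMSO, 180.5, 176 and 169 CPM in WT BafA1 and 56.3, 54.2 and 50.2 CPM in WT DMSO. Trem2 KO DMSO overlapped WT DMSO, and WT BafA1 stood above both (log2 difference -1.52, edgeR adjusted p = 4.4e-11). The second was Smpd1, acid sphingomyelinase (log2 difference -1.02). Among 36 membrane proteins and transporters 18 were lower, 7 higher and 11 not called, with 16 intervals within 1.5-fold, and the 7 became 4 without Trem2 KO DMSO replicate 1. Lamp1, a main coat protein of the lysosome, averaged 1105 ± 120.3 CPM in Trem2 KO DMSO, 1683 ± 32.7 CPM in WT BafA1 and 987 ± 5.01 CPM in WT DMSO (log2 difference -0.61). Mcoln2, a cation channel, was above WT DMSO in both groups, by a log2 difference of 1.05 in Trem2 KO DMSO and 2.05 in WT BafA1. The nucleoside transporter Slc29a3 had 225, 237 and 203 CPM in Trem2 KO DMSO, 223, 209 and 211 CPM in WT BafA1 and 116, 124 and 119 CPM in WT DMSO, so that both groups overlapped well above WT DMSO (interval of the log2 difference -0.13 to 0.23). Npc1, which moves cholesterol out of the lysosome, also had an interval within 1.5-fold (-0.24 to 0.12 on the log2 scale).

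TFEB, TFE3 and the Rag GTPases control when lysosomal genes are read. Of 15 tested genes of this list, 6 were called lower in Trem2 KO DMSO, 3 higher, and 10 had intervals within 1.5-fold. Over all genes these shares were 24.0%, 24.5% and 34.3%. Rragd, a Rag GTPase gene that TFEB itself activates, had 56.6, 68.4 and 47.9 CPM in Trem2 KO DMSO, 82.4, 86.0 and 82.4 CPM in WT BafA1 and 20.0, 17.8 and 19.9 CPM in WT DMSO. Both groups were above WT DMSO without overlap, by a log2 difference of 1.59 in Trem2 KO DMSO and 2.12 in WT BafA1, and the log2 difference between them was -0.53 (edgeR adjusted p = 0.00015). Tfeb and Tfe3 had log2 differences of 0.07 and 0.12, both with intervals within 1.5-fold, while the related factors Mitf (0.47) and Tfec (1.03) were higher in Trem2 KO DMSO.

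Of 37 autophagy genes, 14 were called lower in Trem2 KO DMSO and 4 higher, and the 48.6% called in either direction were close to the 48.5% of all genes. For 22 the interval lay within 1.5-fold. The 4 became 2 without Trem2 KO DMSO replicate 2 or WT BafA1 replicate 1. Sqstm1, the receptor p62 that carries ubiquitin-tagged cargo, had 1341, 1591 and 1393 CPM in Trem2 KO DMSO, 1815, 1845 and 1749 CPM in WT BafA1 and 899, 954 and 935 CPM in WT DMSO. Both groups lay above WT DMSO, and Trem2 KO DMSO was lower than WT BafA1 without overlap (log2 difference -0.32, edgeR adjusted p = 0.00093). The receptor Tax1bp1, which also binds ubiquitin-tagged cargo, averaged 400.5 ± 47.9 CPM in Trem2 KO DMSO, 408 ± 19.5 CPM in WT BafA1 and 232 ± 24.6 CPM in WT DMSO (interval of the log2 difference -0.23 to 0.18). Gabarapl2, a membrane tag of autophagosomes, was below WT DMSO in Trem2 KO DMSO (log2 -0.44) and above it in WT BafA1 (0.30). Lgals3, a galectin that marks broken lysosomes, had 5988, 6428 and 5794 CPM in Trem2 KO DMSO, 5153, 5777 and 5719.8 CPM in WT BafA1 and 3793, 3565 and 3331 CPM in WT DMSO, both groups above WT DMSO and within 1.5-fold of each other (interval of the log2 difference -0.05 to 0.31).

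Genes of sterol synthesis gave one of the widest gaps between the groups. Of 25 tested members of the cholesterol list, 24 were called lower in Trem2 KO DMSO and none higher, 20 of them by 2-fold or more, with a median log2 difference of -2.09. Of all genes 24.0% were lower and 6.26% lower by 2-fold. Hmgcs1, which makes HMG-CoA and whose promoter is printed above, had 94.1, 96.9 and 89.9 CPM in Trem2 KO DMSO, 298, 288 and 298 CPM in WT BafA1 and 103, 107 and 107 CPM in WT DMSO. Trem2 KO DMSO lay a little below WT DMSO with no overlap, and WT BafA1 far above both (log2 difference -1.65, SE 0.0896, edgeR adjusted p = 1.4e-12). Mvd, which makes the isoprene unit of sterols, averaged 12.1 ± 1.85 CPM in Trem2 KO DMSO, 162 ± 22.8 CPM in WT BafA1 and 13.7 ± 1.73 CPM in WT DMSO. The late enzyme gene Hsd17b7 was below WT DMSO in Trem2 KO DMSO (log2 -1.0) and above it in WT BafA1 (1.33). The list's median log2 difference from WT DMSO was -0.29 in Trem2 KO DMSO, with 7 of 25 lower, and 1.48 in WT BafA1, with 24 of 25 higher.

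Fatty acid synthesis followed the same order. Of 14 tested genes, 10 were called lower in Trem2 KO DMSO and none higher, with a median log2 difference of -0.91. Among all genes 24.0% were lower. Fasn, fatty acid synthase, had 10.4, 9.69 and 9.22 CPM in Trem2 KO DMSO, 71.4, 63.2 and 64.5 CPM in WT BafA1 and 14.5, 18.1 and 13.6 CPM in WT DMSO. The groups did not overlap, with Trem2 KO DMSO lowest and WT BafA1 highest. The desaturase genes Fads2 and Scd2 had log2 differences of -3.14 and -2.13.

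LXR targets ran the opposite way. Of 12 tested, 8 were called higher in Trem2 KO DMSO, each by 2-fold or more, none lower, and the other 4 had intervals within 1.5-fold. By 2-fold, 8.66% of all genes were higher. Abca1, the exporter that loads cholesterol onto lipoproteins, had 256, 235 and 236 CPM in Trem2 KO DMSO, 50.8, 49.1 and 46.2 CPM in WT BafA1 and 198, 182 and 159 CPM in WT DMSO. Trem2 KO DMSO stood above and WT BafA1 below WT DMSO, and the log2 difference was 2.31 (SE 0.0874, edgeR adjusted p = 7.6e-15). Mylip, an E3 ubiquitin ligase gene, had a log2 difference of 2.87, the exporter gene Abcg1 of 2.32 and Apoe, the apolipoprotein that macrophages secrete, of 1.5. Apoe averaged 3907 ± 588 CPM in Trem2 KO DMSO and 1379 ± 147 CPM in WT BafA1.

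**Figure D3:**
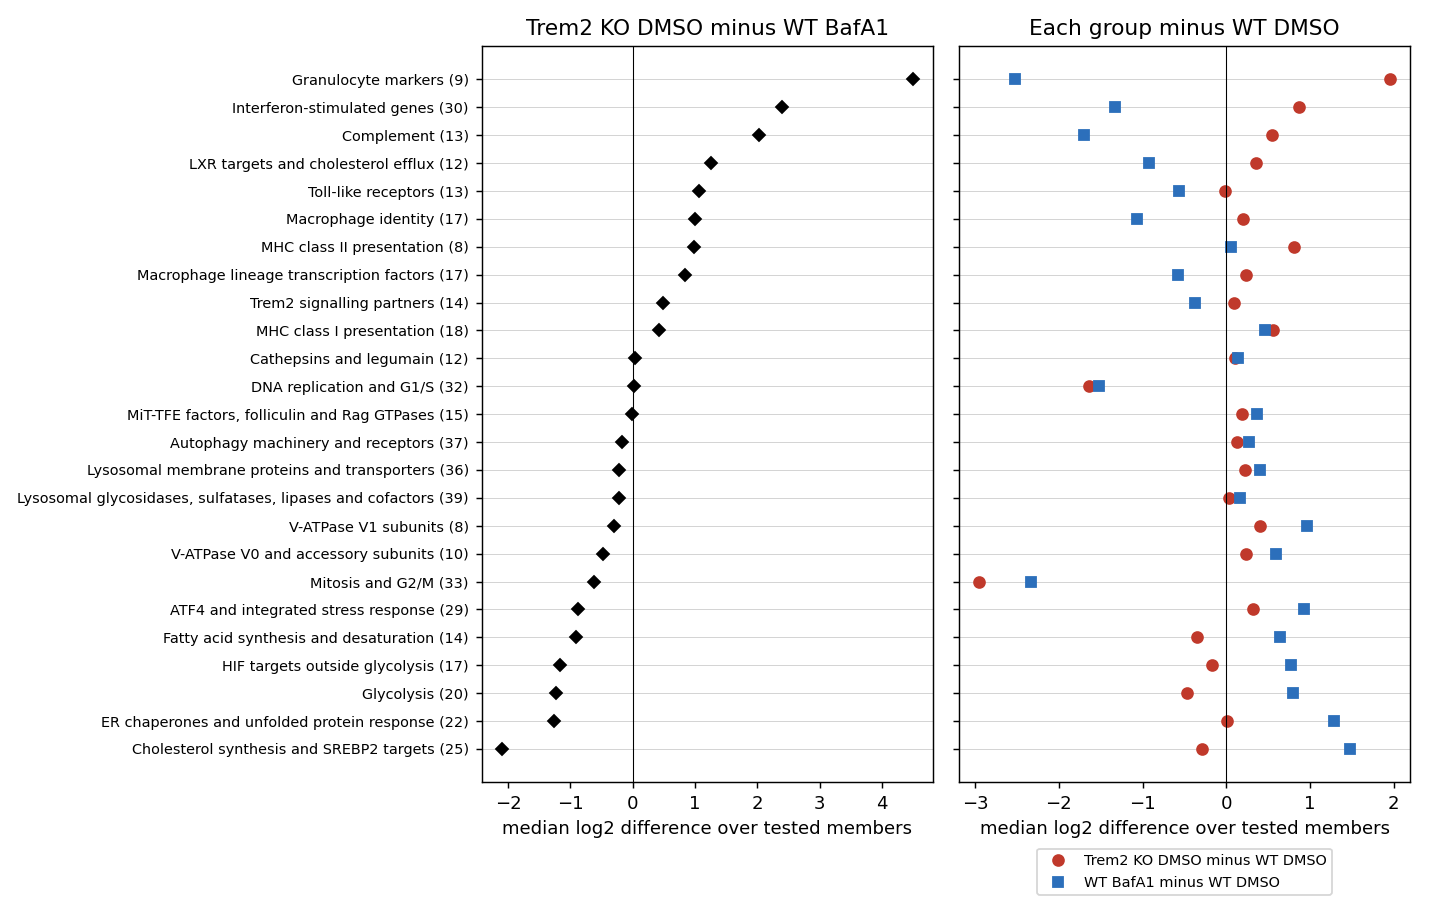
Median log2 difference over the tested members of 25 gene lists (number tested in brackets), as Trem2 KO DMSO minus WT BafA1 on the left and as each group minus WT DMSO on the right. Sterol synthesis lies at -2.09 and interferon-stimulated genes at 2.39, while DNA replication lies at 0.02 with both groups far below WT DMSO. The 2 sets of points on the right share their WT DMSO libraries.

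Lipid uptake and the lipid-associated macrophage genes, a set linked to TREM2 in fatty tissue and brain, were mixed. Among all genes 24.5% were called higher and 24.0% lower. Of 16 tested lipid-associated genes, 8 were called higher in Trem2 KO DMSO and 6 lower, and the 8 became 5 without Trem2 KO DMSO replicate 1 or WT BafA1 replicate 3. Gpnmb, a glycoprotein of loaded lysosomes, had 5506, 6161 and 5330.0 CPM in Trem2 KO DMSO, 11311, 10508 and 11492 CPM in WT BafA1 and 5023, 4518 and 4901 CPM in WT DMSO. Trem2 KO DMSO lay just above WT DMSO and WT BafA1 far above both (log2 difference -0.97). The tetraspanin gene Cd9 and the integrin gene Itgax were lower in Trem2 KO DMSO too, with log2 differences of -0.97 and -3.02. Itgax had 11.7, 6.84 and 9.22 CPM in Trem2 KO DMSO, 88.4, 58.7 and 76.8 CPM in WT BafA1 and 91.2, 74.0 and 99.6 CPM in WT DMSO, so here Trem2 KO DMSO stood alone and both wild-type groups overlapped. Lpl, lipoprotein lipase, had 1857, 1946 and 2043 CPM in Trem2 KO DMSO, 1623, 1373 and 1618 CPM in WT BafA1 and 7041, 6228 and 7381 CPM in WT DMSO. Both groups were far below WT DMSO, with log2 differences of -1.82 in Trem2 KO DMSO and -2.16 in WT BafA1. The log2 difference between them of 0.34 (edgeR adjusted p = 0.037) was not called by DESeq2 (adjusted p = 0.16) or without any 1 of the 6 libraries (0.055 to 0.18).

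Among 16 genes of lipid uptake, droplets and lipolysis, 8 were lower and 4 higher in Trem2 KO DMSO, and the 4 became 2 without WT BafA1 replicate 1 or 2. The fatty acid chaperone Fabp5 was above WT DMSO in both groups, by a log2 difference of 1.27 in Trem2 KO DMSO and 1.72 in WT BafA1. Mgll, which splits monoacylglycerol, was lower in Trem2 KO DMSO (log2 difference -2.94), and Plin2, a coat protein of lipid droplets, was higher (1.10). Mfge8, a bridge between dying cells and phagocytes, averaged 149.7 ± 17.1 CPM in Trem2 KO DMSO, 969.9 ± 117 CPM in WT BafA1 and 420.3 ± 77.2 CPM in WT DMSO, on opposite sides of WT DMSO.

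ER chaperones stood high in WT BafA1 and far lower in Trem2 KO DMSO. Between these groups 24.0% of all genes were called lower and 6.26% lower by 2-fold. Of 22 tested genes, 21 were called lower in Trem2 KO DMSO, 15 by 2-fold or more, with a median log2 difference of -1.26. All 22 were called higher than WT DMSO in WT BafA1, against 1 higher and 3 lower in Trem2 KO DMSO. Hspa5, the chaperone BiP whose promoter is printed above, had 1059, 885 and 1054 CPM in Trem2 KO DMSO, 3361, 3229.9 and 3269 CPM in WT BafA1 and 963, 919 and 977 CPM in WT DMSO. Trem2 KO DMSO overlapped WT DMSO, and its log2 difference to WT BafA1 was -1.72 (SE 0.0908, edgeR adjusted p = 1.3e-12). Hyou1, an ER chaperone that works with BiP, differed by -2.13 on the log2 scale.

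The integrated stress response was shared in part. Between Trem2 KO DMSO and WT BafA1, 24.0% of all genes were called lower and 24.5% higher. Of 29 tested ATF4 and stress genes, 20 were called lower in Trem2 KO DMSO, 5 higher and 4 not called, with a median log2 difference of -0.88. Against WT DMSO, 12 were higher and 7 lower in Trem2 KO DMSO, and 21 higher and 1 lower in WT BafA1. Atf4, the factor itself, had 441, 603 and 518 CPM in Trem2 KO DMSO, 1125, 1019 and 978 CPM in WT BafA1 and 307, 353 and 386 CPM in WT DMSO, 3 levels without overlap (log2 difference -1.0). Ddit3, the stress factor CHOP, had 99.8, 149 and 107 CPM in Trem2 KO DMSO, 148, 151 and 144 CPM in WT BafA1 and 32.3, 41.1 and 43.7 CPM in WT DMSO. Both groups were above WT DMSO, and they overlapped through Trem2 KO DMSO replicate 2 alone. That library was also the highest of its group in the summed stress list (3107.5 CPM, against 2570.9 and 2498.3 CPM). The Ddit3 log2 difference of -0.31 (edgeR adjusted p = 0.044) was no longer called without Trem2 KO DMSO replicate 1 or 3 or any 1 of the WT BafA1 replicates (adjusted p of 0.057 to 0.19). Gdf15, a secreted stress cytokine, was higher in Trem2 KO DMSO, with 299, 493 and 275 CPM in Trem2 KO DMSO, 233, 238 and 205 CPM in WT BafA1 and 59.8, 62.7 and 47.0 CPM in WT DMSO (log2 difference 0.66, edgeR adjusted p = 0.0015). Genes of amino acid synthesis were among those lower in Trem2 KO DMSO. Asns, which makes asparagine, had 10.6, 10.8 and 8.30 CPM in Trem2 KO DMSO, 35.4, 42.8 and 40.0 CPM in WT BafA1 and 19.6, 16.3 and 14.3 CPM in WT DMSO. Asns was below WT DMSO in Trem2 KO DMSO and above it in WT BafA1, without overlap, as was Phgdh, the entry enzyme of serine synthesis (log2 -1.55 in Trem2 KO DMSO and 1.83 in WT BafA1).

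**Figure D4:**
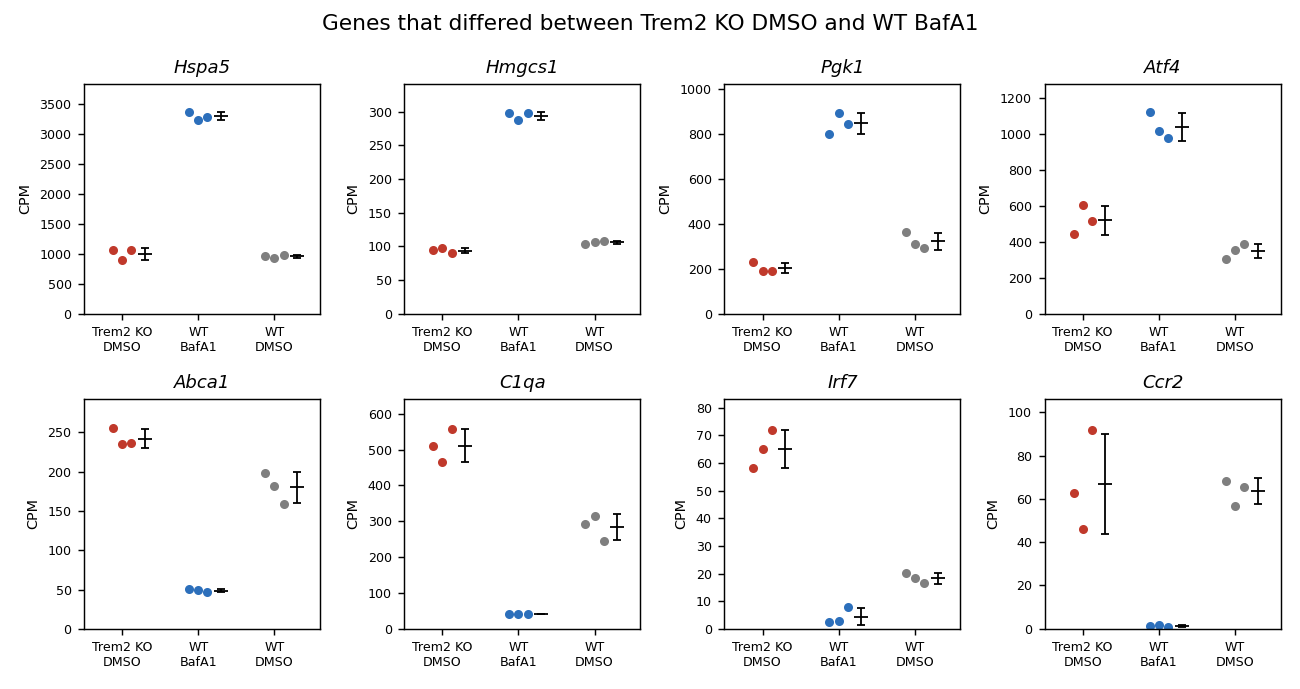
CPM of 8 genes in each library of Trem2 KO DMSO, WT BafA1 and WT DMSO (points), with mean and SD (bars, n = 3). In each of the 8 the Trem2 KO DMSO and WT BafA1 libraries are apart, and for Hspa5 and Ccr2 the Trem2 KO DMSO libraries overlap those of WT DMSO.

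Glycolysis and hypoxia genes were lower in Trem2 KO DMSO almost throughout. Among all genes 24.0% were called lower and 6.26% lower by 2-fold. Of 20 glycolysis genes 19 were called lower, 14 by 2-fold or more, and of 17 tested targets of the hypoxia factor HIF outside glycolysis 15 were lower and none higher, or 1 higher without Trem2 KO DMSO replicate 2. Pgk1, phosphoglycerate kinase, had 229.8, 191 and 187 CPM in Trem2 KO DMSO, 802, 896 and 846 CPM in WT BafA1 and 365, 309.5 and 291 CPM in WT DMSO. The 3 groups did not overlap, with Trem2 KO DMSO below and WT BafA1 above WT DMSO (log2 difference -2.07, SE 0.0950, edgeR adjusted p = 1.7e-13). Slc16a3, the lactate exporter, differed by -2.77 on the log2 scale. Ak4, an adenylate kinase of mitochondria, had the largest decrease of the named genes, with 2.53, 1.52 and 0.692 CPM in Trem2 KO DMSO and 51.0, 62.9 and 52.6 CPM in WT BafA1 (log2 difference -5.12). The median log2 differences of the glycolysis list against WT DMSO were -0.47 in Trem2 KO DMSO, with 12 of 20 lower, and 0.79 in WT BafA1, with 18 of 20 higher.

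DNA replication genes were below WT DMSO in both groups, and most were not called between them. Of 32 tested genes, 3 were called higher in Trem2 KO DMSO, 6 lower and 23 not called, a share of 28.1% called against 48.5% of all genes, and 15 intervals lay within 1.5-fold. By 2-fold or more, 1 was higher and 4 were lower. The median log2 difference was 0.02. Against WT DMSO, 30 of the 32 were lower in Trem2 KO DMSO and all 32 in WT BafA1, with median log2 differences of -1.64 and -1.52. Of all genes 16.5% were lower in Trem2 KO DMSO and 25.3% in WT BafA1. Mcm5, part of the replicative helicase, had 9.89, 11 and 14.3 CPM in Trem2 KO DMSO, 13, 13 and 12.6 CPM in WT BafA1 and 69.7, 67.9 and 54.8 CPM in WT DMSO. Its sister Mcm7 had 14.3, 12.5 and 17.7 CPM in Trem2 KO DMSO, 15.2, 14.7 and 13.3 CPM in WT BafA1 and 76.1, 73.8 and 69.0 CPM in WT DMSO. For both, the libraries of Trem2 KO DMSO and WT BafA1 overlapped far below WT DMSO, with intervals of the log2 difference of -0.49 to 0.21 and -0.26 to 0.33. Lig1, the ligase that joins new DNA, and Rrm1, a subunit of ribonucleotide reductase, had intervals of the log2 difference of -0.30 to 0.12 and -0.33 to 0.27. The replication starters Mcm10 and Cdc45 lay apart in opposite directions, with log2 differences of 1.22 and -1.67. Pcna, the sliding clamp, was higher in Trem2 KO DMSO (log2 difference 0.38). Of the 3 higher, Pcna alone kept its call without Trem2 KO DMSO replicate 1 or 3 or WT BafA1 replicate 2.

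Mitosis genes were low in both groups, and those called between the groups were almost all lower in Trem2 KO DMSO. All 33 tested were below WT DMSO in both groups, with median log2 differences of -2.95 in Trem2 KO DMSO and -2.33 in WT BafA1. Between the groups, 15 were called lower in Trem2 KO DMSO, 1 higher (2 without Trem2 KO DMSO replicate 1) and 17 not called, with a median log2 difference of -0.62. The 48.5% called in either direction equalled the 48.5% of all genes, of which 24.0% were lower and 24.5% higher. Only 1 interval of the 33 lay within 1.5-fold (3.03%, against 34.3% of all genes). Nearly all of the 17 not called are therefore undecided rather than alike. Top2a, the topoisomerase of dividing cells, had 19.8, 14.4 and 15.0 CPM in Trem2 KO DMSO, 38.6, 30.3 and 33.7 CPM in WT BafA1 and 158, 171 and 185 CPM in WT DMSO, without overlap (log2 difference -1.06, edgeR adjusted p = 6.2e-07). Cdk1, the mitotic kinase whose promoter is printed above, averaged 12.1 ± 2.47 CPM in Trem2 KO DMSO and 19.9 ± 1.79 CPM in WT BafA1 (log2 difference -0.73). The proliferation marker Mki67 differed by -1.52 on the log2 scale. Cdkn1c, an inhibitor of cyclin-dependent kinases, had 61.2, 79.5 and 70.3 CPM in Trem2 KO DMSO, 409.6, 434 and 427 CPM in WT BafA1 and 17.4, 15.8 and 18.8 CPM in WT DMSO, above WT DMSO in both groups and far more so in WT BafA1 (log2 difference -2.59). In bulk RNA, fewer cells of a kind and less RNA per cell cannot be told apart.

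**Figure D5:**
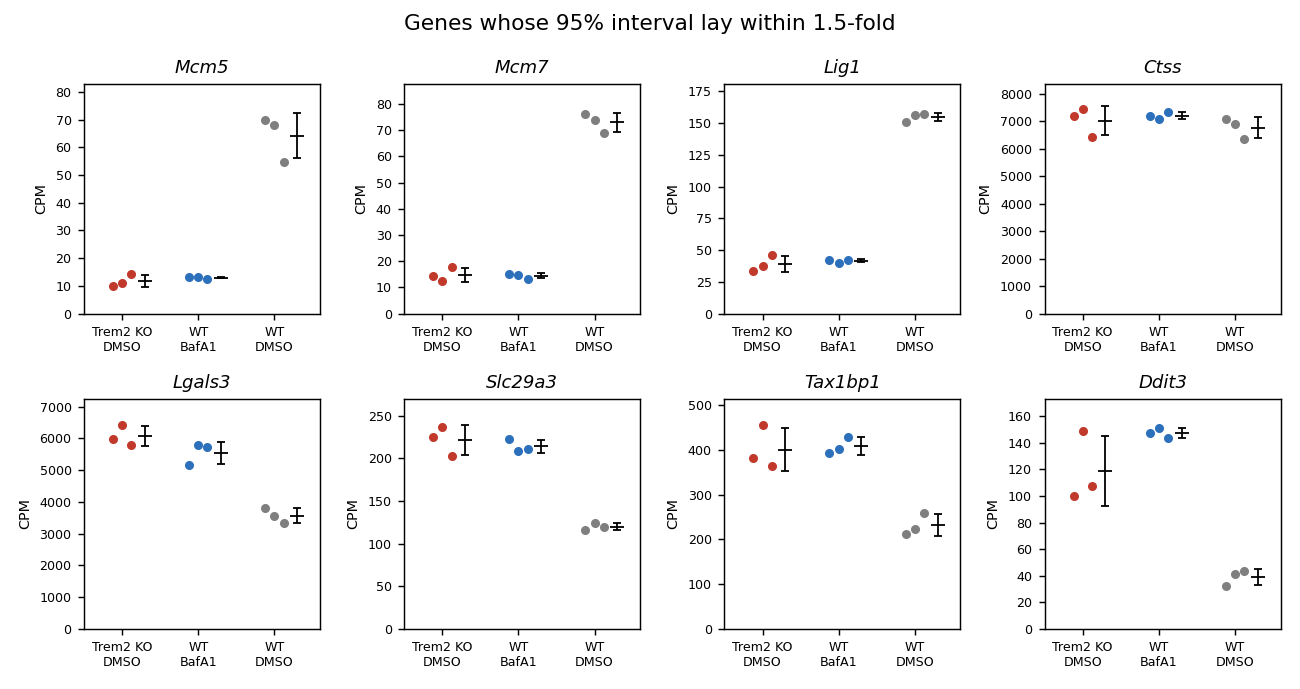
CPM of 8 genes whose 95% interval of the difference between Trem2 KO DMSO and WT BafA1 lay within 1.5-fold, in each library (points) with mean and SD (bars, n = 3). Except for Ctss, both groups lie on the same side of WT DMSO, below it for Mcm5, Mcm7 and Lig1 and above it for Lgals3, Slc29a3, Tax1bp1 and Ddit3. Ddit3 was also called between the groups (log2 difference -0.31, edgeR adjusted p = 0.044). Mcm5, Mcm7, Lig1 and Ddit3 came from a rule that used their side of WT DMSO. Slc29a3 and Tax1bp1 were chosen after their values were seen.

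By a rule that took genes called on the same side of WT DMSO in both groups with an interval within 1.5-fold, 8 genes above and 8 below WT DMSO were named, and since the rule used these values they are given as a description. Above WT DMSO, with levels as Trem2 KO DMSO, WT BafA1 and WT DMSO means, were Pdpn, the membrane glycoprotein podoplanin (40.1, 47.8 and 7.86 CPM), and the kinase gene Pim1 (219.6, 218 and 93.4 CPM). The chemokine gene Ccl3 stood at 44.3, 44.7 and 15.9 CPM, and Ppp1r15a, which restores translation after stress, at 25.3, 22.1 and 8.23 CPM. The others were Ddit3, Pira1, Gpr162 and Car13. Below WT DMSO were Mcm5, Mcm7, Lig1, Rrm1, the kinetochore gene Spc25, Hmgn3, the adaptor gene Dok2 (15.1, 13 and 64.0 CPM) and Kitl, the ligand of the receptor KIT (33.7, 37.2 and 118 CPM).

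Interferon-stimulated genes gave a wide gap in the other direction. All 30 tested were called higher in Trem2 KO DMSO, 29 of them by 2-fold or more, against 24.5% and 8.66% of all genes. The median log2 difference was 2.39, or 1.97 with a filter of 10 CPM in 3 libraries. Members that passed the filter on low counts only through the groups where they are high had to differ. The count is therefore given as a description. Against WT DMSO, 25 of the 30 were higher in Trem2 KO DMSO, while 26 were lower and 1 higher in WT BafA1. Irf7, the factor that amplifies interferon, had 58.2, 65.2 and 72.2 CPM in Trem2 KO DMSO, 2.51, 3.00 and 7.79 CPM in WT BafA1 and 20.2, 18.3 and 16.4 CPM in WT DMSO. Ifit3, whose promoter is printed above, had 29.0, 40.1 and 38.3 CPM in Trem2 KO DMSO, 1.34, 1.65 and 2.6 CPM in WT BafA1 and 8.72, 12.8 and 12.6 CPM in WT DMSO. For both genes Trem2 KO DMSO stood above and WT BafA1 below WT DMSO without overlap, with log2 differences of 3.90 and 4.26 between the groups. Ifit3 and its near copy Ifit3b may share reads, so how counts were split between them is uncertain. Bst2, a virus tether, was the member under 2-fold (0.33).

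Genes of MHC class II presentation were mostly higher in Trem2 KO DMSO, while class I genes were called in both directions. The shares over all genes were 24.5% higher and 24.0% lower. Of 8 tested genes of MHC class II presentation, 5 were higher in Trem2 KO DMSO and 2 lower, and the lower count became 1 without Trem2 KO DMSO replicate 3 or WT BafA1 replicate 3, when H2-DMb1 lost its call (adjusted p of 0.065 and 0.053). H2-Eb1 had 46.2, 40.9 and 40.6 CPM in Trem2 KO DMSO, 14.9, 12.1 and 10.2 CPM in WT BafA1 and 11.9, 11.7 and 12.3 CPM in WT DMSO. Trem2 KO DMSO stood above both wild-type groups, which overlapped (log2 difference 1.77, edgeR adjusted p = 1.9e-10). Of 18 class I genes 9 were higher and 5 lower. Against WT DMSO, 12 were higher and 0 lower in Trem2 KO DMSO, and 10 higher and 2 lower in WT BafA1. Of all genes, 13.8% were higher than WT DMSO in Trem2 KO DMSO and 21.6% in WT BafA1. The summed class I level averaged 6359.5 CPM in Trem2 KO DMSO, 6377.5 CPM in WT BafA1 and 4328.7 CPM in WT DMSO. Class I heavy-chain genes have near-identical copies that may share reads, so single members are uncertain.

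Complement genes were mostly higher in Trem2 KO DMSO, 9 of 13 called and 1 lower, each by 2-fold or more. By 2-fold, 8.66% of all genes were higher and 6.26% lower. C1qa, a chain of the C1q recognition molecule, had 511, 465 and 557 CPM in Trem2 KO DMSO, 40.1, 41.0 and 41.2 CPM in WT BafA1 and 293, 315 and 245 CPM in WT DMSO. Trem2 KO DMSO stood above and WT BafA1 far below WT DMSO (log2 difference 3.65, SE 0.0986, edgeR adjusted p = 6.4e-17). C3, the central component, had like levels in both groups (17.3 CPM in Trem2 KO DMSO and 17.5 CPM in WT BafA1, interval of the log2 difference -0.39 to 0.35), both above 6.60 CPM in WT DMSO. Cfb, factor B of the alternative pathway, was the lower one (log2 difference -2.36).

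Macrophage identity genes, chemokine receptors, C-type lectin receptors and the Toll-like receptor list were mostly higher in Trem2 KO DMSO. Integrins and Fc gamma receptors were called in both directions. Of 17 tested identity genes, 14 were higher and 2 lower, or 1 lower without Trem2 KO DMSO replicate 3. Of 8 chemokine receptors 6 were higher and 1 lower. The shares over all genes were 24.5% higher and 24.0% lower. Here too, genes that passed the filter only through the group where they are high had to differ. Of 13 genes of the Toll-like receptor list 9 were higher and 2 lower. This list also holds Unc93b1 (log2 difference 1.51) and Ly86 (3.19, its largest), which are not Toll-like receptors themselves. Of 11 C-type lectin receptors 8 were higher and 2 lower. Of 13 integrin genes 6 were higher and 5 lower. The Fc gamma receptor list has 5 genes, counting the adaptor chain gene Fcer1g, which was not called (log2 difference 0.11). Of these 5, 2 were higher and 2 lower, or 1 lower without Trem2 KO DMSO replicate 3 or WT BafA1 replicate 3. Ccr2, which draws monocytes towards CCL2, had 62.8, 46.2 and 92.0 CPM in Trem2 KO DMSO, 1.34, 1.80 and 0.865 CPM in WT BafA1 and 68.3, 56.7 and 65.6 CPM in WT DMSO. Trem2 KO DMSO overlapped WT DMSO, and WT BafA1 lay far below both (log2 difference 5.60). Ccr3, a receptor for eotaxins, averaged 30.1 ± 2.89 CPM in Trem2 KO DMSO, 0.523 ± 0.524 CPM in WT BafA1 and 54.9 ± 2.78 CPM in WT DMSO. Aif1, the marker Iba1, had 232, 203 and 268 CPM in Trem2 KO DMSO, 12.5, 5.24 and 4.50 CPM in WT BafA1 and 111, 113 and 104 CPM in WT DMSO (log2 difference 4.98). Fcgr1, the high-affinity IgG receptor, differed by 4.52 on the log2 scale, the inhibitory receptor gene Fcgr2b by -0.46 and Mertk, which recognises dying cells, by 2.70. Among Toll-like receptor genes, the sensors of single-stranded RNA Tlr7 and Tlr8 were higher (log2 differences 1.62 and 2.53) and the lipoprotein sensor genes Tlr2 and Tlr6 lower (-0.60 and -0.62). The lectin gene Clec4a1, which has close copies that may share reads, averaged 183 ± 34.5 CPM in Trem2 KO DMSO and 6.02 ± 0.491 CPM in WT BafA1. Clec4e, the receptor Mincle for mycobacterial and cell-death lipids, was an exception, with 39.6, 33.3 and 21.4 CPM in Trem2 KO DMSO, 461, 503 and 397 CPM in WT BafA1 and 11.7, 14.6 and 13 CPM in WT DMSO (log2 difference -3.85). The integrin gene Itgam was low in both groups, with 186, 136 and 170.1 CPM in Trem2 KO DMSO, 167, 120.4 and 153 CPM in WT BafA1 and 439, 397 and 414 CPM in WT DMSO (interval of the log2 difference -0.08 to 0.39). Cx3cr1, the fractalkine receptor, was below WT DMSO in both groups (log2 -2.30 in Trem2 KO DMSO and -3.19 in WT BafA1).

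Among 17 lineage transcription factors, 12 were higher in Trem2 KO DMSO and 2 lower, against 24.5% and 24.0% of all genes. Spi1, the master factor PU.1, had 188, 171 and 176 CPM in Trem2 KO DMSO, 184, 175 and 173 CPM in WT BafA1 and 188, 196 and 199 CPM in WT DMSO, and Trem2 KO DMSO and WT BafA1 overlapped with an interval of the log2 difference of -0.14 to 0.16. Maf, a factor of resident macrophages, had 741, 594 and 745 CPM in Trem2 KO DMSO, 71.7, 80.7 and 90.5 CPM in WT BafA1 and 444, 434 and 387 CPM in WT DMSO, with Trem2 KO DMSO above and WT BafA1 below WT DMSO (log2 difference 3.10).

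Inflammatory genes and ligands showed no single direction. Of 21 cytokines and NF-kB targets, 11 were lower in Trem2 KO DMSO and 6 higher, against 24.0% and 24.5% of all genes. Tnf averaged 18.9 ± 4.43 CPM in Trem2 KO DMSO and 35.5 ± 1.75 CPM in WT BafA1 (log2 difference -0.89). Il1rn, the decoy ligand that blocks interleukin-1, had 383, 531 and 388 CPM in Trem2 KO DMSO, 109, 115 and 137 CPM in WT BafA1 and 102, 96.0 and 98.5 CPM in WT DMSO, with Trem2 KO DMSO above both (log2 difference 1.85). Of 15 chemokine genes 8 were higher and 1 lower, and the 8 became 5 without Trem2 KO DMSO replicate 2, and the 1 became 2 without WT BafA1 replicate 2.

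Granulocyte and monocyte markers were also higher in Trem2 KO DMSO, while the 3 mast cell markers ran in both directions. The 8 listed granulocyte markers summed to 333 to 577 CPM in Trem2 KO DMSO, 43.0 to 53.1 CPM in WT BafA1 and 133 to 145 CPM in WT DMSO. Most of this sum came from S100a8 (1017, 965 and 1331 counts in Trem2 KO DMSO) and S100a9 (721, 665 and 1017). Ltf had 68, 68 and 83 counts there and Camp 38, 38 and 51. The others were near the floor in Trem2 KO DMSO: Ly6g had 2, 7 and 4 counts, Mpo 1, 3 and 9, Elane 0, 1 and 1 and Retnlg 5, 5 and 9. Mpo was at 0 in WT BafA1. Of 16 listed granulocyte genes 9 passed the filter and all 9 were called higher, but genes that pass only through the group where they are high had to differ. S100a9, a calcium-binding protein of neutrophils and monocytes, had 166, 126 and 234 CPM in Trem2 KO DMSO, 7.69, 7.64 and 7.96 CPM in WT BafA1 and 42.3, 44.6 and 47.3 CPM in WT DMSO (log2 difference 4.49). The 4 monocyte markers summed to 69.4 to 118 CPM in Trem2 KO DMSO, 1.84 to 2.6 CPM in WT BafA1 and 62.1 to 72.7 CPM in WT DMSO. Dendritic cell markers stayed at 0.922 to 3.23 CPM in Trem2 KO DMSO and 0.346 to 1.17 CPM in WT BafA1, and markers of T, B and NK cells at 2.09 to 3.91 CPM in Trem2 KO DMSO and 0.346 to 0.836 CPM in WT BafA1. Mast cell markers summed to 0.92 to 4.75 CPM in Trem2 KO DMSO, 5.51 to 6.23 CPM in WT BafA1 and 0.425 to 1.18 CPM in WT DMSO. The tested one, the receptor gene Kit, was lower (log2 difference -1.91, edgeR adjusted p = 0.0013). Kit had 3, 18 and 1 counts in Trem2 KO DMSO, 33, 40 and 36 in WT BafA1 and 2, 5 and 6 in WT DMSO. Cpa3 and Ms4a2, too low to be tested, had 1, 6 and 1 and 0, 1 and 4 counts in Trem2 KO DMSO. In WT BafA1 they had 0, 0 and 0 and 0, 1 and 0 counts. Erythroid and platelet markers overlapped, at 0.19 to 2.07 CPM in Trem2 KO DMSO and 0.334 to 0.519 CPM in WT BafA1. Stromal and endothelial markers summed to 6.44 to 10.1 CPM in Trem2 KO DMSO and 1.35 to 3.29 CPM in WT BafA1. Osteoclast markers summed to 11.1 to 18.6 CPM in Trem2 KO DMSO, 17.5 to 25.8 CPM in WT BafA1 and 44.8 to 54.2 CPM in WT DMSO. The part of these cells in the interferon, complement and receptor results was not tested.

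Genes on opposite sides of WT DMSO were named by a rule that used both distances and are given as a description. Higher in Trem2 KO DMSO and lower in WT BafA1 were Ly6a, Fcrls, Chil3, S100a9, Ngp, Irf7, Arhgap19 and Ifit3. Ly6a, the surface antigen Sca-1, had 289 counts over the 3 Trem2 KO DMSO libraries, 1 count in WT BafA1 and 11 in WT DMSO, a ratio of 382 between the first 2 groups (95% counting interval 68.0 to 15100). Fcrls, a marker of microglia, had 127, 87.6 and 157 CPM in Trem2 KO DMSO, 4.35, 2.55 and 2.94 CPM in WT BafA1 and 25.5, 25.2 and 18.3 CPM in WT DMSO. Among those lower in Trem2 KO DMSO and higher in WT BafA1 were Ak4, Phgdh, Fads2, Slc7a2, Mfge8, Rcn1 and Hsd17b7. Slc7a2, a carrier of arginine and lysine, averaged 3.42 ± 1.63 CPM in Trem2 KO DMSO, 33.0 ± 8.59 CPM in WT BafA1 and 8.74 ± 0.982 CPM in WT DMSO.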

How the data were processed

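RNA from 12 macrophage cultures (Trem2 knockout or wild type, with DMSO or bafilomycin A1, 3 each) was sequenced from the 3′ end with QuantSeq. The deposited table holds estimated counts per gene, made by the authors with Salmon on GRCm39 per the submitters' processing notes, and 42% of its non-zero values were not whole (tolerance 1e-06). These estimated counts were rounded, since whole counts had been assumed when the test was chosen. Library totals ran from 4407466 to 7074860. Genes were kept by edgeR's filterByExpr (minimum count 10, total 15), and 1 quasi-likelihood fit with TMM factors covered all 12 libraries with a mean per group (edgeR 4.0.16, R 4.3.3). The KO BafA1 libraries entered only the filter, the TMM factors and the estimate of spread. The common biological coefficient of variation was 0.0795. CPM were computed from the rounded counts with TMM library sizes. SEs and 95% intervals come from the same fit. A difference was read as small where its interval lay within 1.5-fold. Replicates of a group differed beyond counting noise, by 2.266 to 6.235 times (chi-square over degrees of freedom). Counting intervals cover counting error only. Named genes were the 12 largest increases and 12 largest decreases with at least 20 CPM in the higher group, list members with the smallest p, all members of lists with 12 or fewer tested genes, the genes alike or opposite against WT DMSO, and a panel. The lists and the genes were chosen with earlier results of these data known. Alternatives used limma voom 3.58.1, DESeq2 1.42.0, other scaling factors and filters, a replicate block and each library left out. The fit was tested on simulated data. Promoter sequences are RefSeq's, build GRCm38.p6, which is not the build of the counts, and no coordinates were carried between builds. A few members of the lists are counted but not reported here by name.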

Additional observations from a re-analysis of the deposited data

How the results depend on the processing

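Of the 12052 genes tested, 5846 were called between Trem2 KO DMSO and WT BafA1, and the count was 5853 with RLE factors, 5828 with upper-quartile factors, 5769 with library size alone, 5783 with limma voom, 5254 with DESeq2, 5637 without a filter, 4940 with a filter of 10 CPM in 3 libraries and 5887 in a fit of the 6 compared libraries alone. DESeq2 shared 5236 calls with the fit reported. Leaving out 1 of the 6 compared libraries gave 5210 to 5470 calls, and leaving out a WT DMSO library 5788 to 5969. Library size alone split the calls into 2712 higher and 3057 lower, against 2951 and 2895. Under the 10 CPM filter, which tests fewer genes, 559 genes were higher and 478 lower by 2-fold or more, against 1044 and 754. The 4128 genes with a small difference became 1089 with a narrower band and 7713 with a band of 2-fold. With the replicate number as a block 5796 genes were called, 5733 of them shared. The numbers did not pair Trem2 KO DMSO with WT BafA1: deviations of their same-numbered libraries correlated at 0.008, -0.033 and -0.046, and none of the 3 correlated best with its own number. Over 387 named genes and 18 alternatives, 98 calls were lost, 30 were gained and none changed direction. The median of all genes ran from -0.008 to 0.0334. List medians moved past the spread of replicates in 67 cases, and the lymphocyte, NK and mast cell list had no tested member left under the 10 CPM filter. Depth limits genes with few counts: Ly6a, with 1 count in WT BafA1, has a ratio known only within its counting interval.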

Other observations

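Genes by which macrophages take up dying cells were mostly higher in Trem2 KO DMSO than in WT BafA1. Of 17 tested scavenger and efferocytosis receptors and their ligands, 10 were called higher and 3 lower, where 24.5% of all genes were higher and 24.0% lower. Mrc1, the mannose receptor, had 165, 178 and 145 CPM in Trem2 KO DMSO, 48.0, 44.8 and 36.9 CPM in WT BafA1 and 81.9, 68.4 and 51.1 CPM in WT DMSO, so Trem2 KO DMSO stood above both wild-type groups (log2 difference 1.91, edgeR adjusted p = 3.6e-10). Axl, a partner receptor of MERTK, and Gas6, the ligand of both, had log2 differences of 2.10 and 1.65. Msr1, a scavenger receptor for modified lipoproteins, was below WT DMSO in both groups, by -1.02 in Trem2 KO DMSO and -0.63 in WT BafA1 on the log2 scale. Mfge8, described above, and the integrin gene Itgb3 (-2.62) were lower in Trem2 KO DMSO.

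Iron genes were mixed, with 9 of 16 higher in Trem2 KO DMSO and 3 lower, and the 3 became 5 without WT DMSO replicate 1 or 3 and with RLE factors or library size alone. Slc40a1, the iron exporter ferroportin, had 146, 127 and 97.7 CPM in Trem2 KO DMSO, 8.52, 8.09 and 6.92 CPM in WT BafA1 and 44.7, 42.6 and 36.1 CPM in WT DMSO. Trem2 KO DMSO lay above and WT BafA1 below WT DMSO without overlap (log2 difference 3.97, edgeR adjusted p = 3.5e-13). Hmox1, which frees iron from haem, averaged 623 ± 86.7 CPM in Trem2 KO DMSO, 397 ± 22.4 CPM in WT BafA1 and 638 ± 60.0 CPM in WT DMSO. Slc25a37, which brings iron into mitochondria, was lower in Trem2 KO DMSO (log2 difference -2.11). Of 13 targets of ERK signalling, 12 were lower than WT DMSO and 1 higher in Trem2 KO DMSO, and 8 were lower and 2 higher in WT BafA1. Between the groups 8 were lower and 3 higher, among them the phosphatase gene Dusp4 (-1.91) and the early response gene Fos (2.47) in opposite directions. Among the 13 mRNAs encoded by mitochondrial DNA, 2 were higher and 3 lower in Trem2 KO DMSO, and 11 intervals lay within 1.5-fold. The 2 became 1 without Trem2 KO DMSO replicate 1 or 2, any 1 of the WT BafA1 replicates or WT DMSO replicate 1, and under DESeq2, the replicate block, no filter or library size alone.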
